A study of Mus musculus with 10 samples.

Results

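The mitochondrial respiratory chain is built from subunits of which most are encoded in the nucleus, and their transcripts were examined here in the 2 epithelial layers of the mouse mammary gland. Genes were taken by symbol, as the nuclear-encoded subunits of complex I (Ndufa, Ndufb, Ndufc, Ndufs and Ndufv with a number), complex II (Sdha to Sdhd), complex III (Uqcr genes and Cyc1), complex IV (Cox4 to Cox8 genes), the ATP synthase (Atp5 genes) and cytochrome c (Cycs), leaving out pseudogenes. This gave 85 of the 24594 genes in the count table, namely 35 of complex I, 4 of complex II, 9 of complex III, 19 of complex IV including Ndufa4, 17 of the ATP synthase and 1 for cytochrome c. Bulk RNA-seq came from adult, wild type C57BL/6J mice whose glands were dissociated with enzymes and whose epithelial cells were sorted by EpCAM and CD49f. Luminal cells face the lumen of the ducts, and basal cells form the contractile layer around them. Each was represented by 5 libraries of 13203146 to 17998165 counts. Nothing in the labels states that libraries of a group came from separate animals, so p-values measure the spread between these libraries, which may be technical.

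For all 10 libraries the title gives the other cell type than the cell type entry, the source name and the letter in the description, which concur. Libraries were grouped by the cell type entry, and markers followed that grouping. All 9 luminal markers were higher in the libraries called luminal, with a summed level of 9270 to 13700 CPM (counts of a gene per 1000000 counts of its library) against 949 to 1430 CPM in the others, and all 7 basal markers were higher in those called basal, at 10600 to 15100 CPM against no more than 79.5 CPM.

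Complex I takes electrons from NADH and complex II takes them from succinate, ubiquinone carries them to complex III, and cytochrome c carries them on to complex IV, which reduces oxygen. Complexes I, III and IV pump protons across the inner mitochondrial membrane, and the ATP synthase uses the resulting gradient to make ATP. Several complex IV subunits exist as a widely expressed form and a second form that is known from muscle, lung or testis, and subunit c of the ATP synthase ring is encoded by several genes with the same mature protein.

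Most subunits were higher in luminal cells. Of the 82 members that passed the filter on low counts, 69 (84.1%) were higher in luminal cells and 2 (2.44%) in basal cells at an adjusted p under 0.05 (edgeR quasi-likelihood test, Benjamini-Hochberg over all genes tested), where 33.6% of all 14609 genes tested were called toward luminal cells and 31.2% toward basal cells, 64.8% in either direction. The log2 fold change, luminal over basal throughout, was positive for 78 of the 82. Its median over the members was 1.15, a fold of 2.21, beside 0.05 over all genes tested. At least 2-fold differences with an adjusted p under 0.05 were found for 48 members toward luminal and 2 toward basal cells, against 20.9% and 19.1% of all genes. In 49 members every luminal library stood above every basal library, which held for 24.7% of all genes, and in 2 members every basal library stood above every luminal one, which held for 25.3%. The 2 members higher in basal cells were Cox6a2 and Cox4i2, both second forms of a complex IV subunit. Of these, Cox6a2 passed the filter only through its basal libraries, with 4 counts in luminal and 144 in basal libraries. Levels are shares of the sequenced transcripts, and in bulk samples fewer cells of a type and less RNA per cell cannot be told apart.

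**Figure D1:**
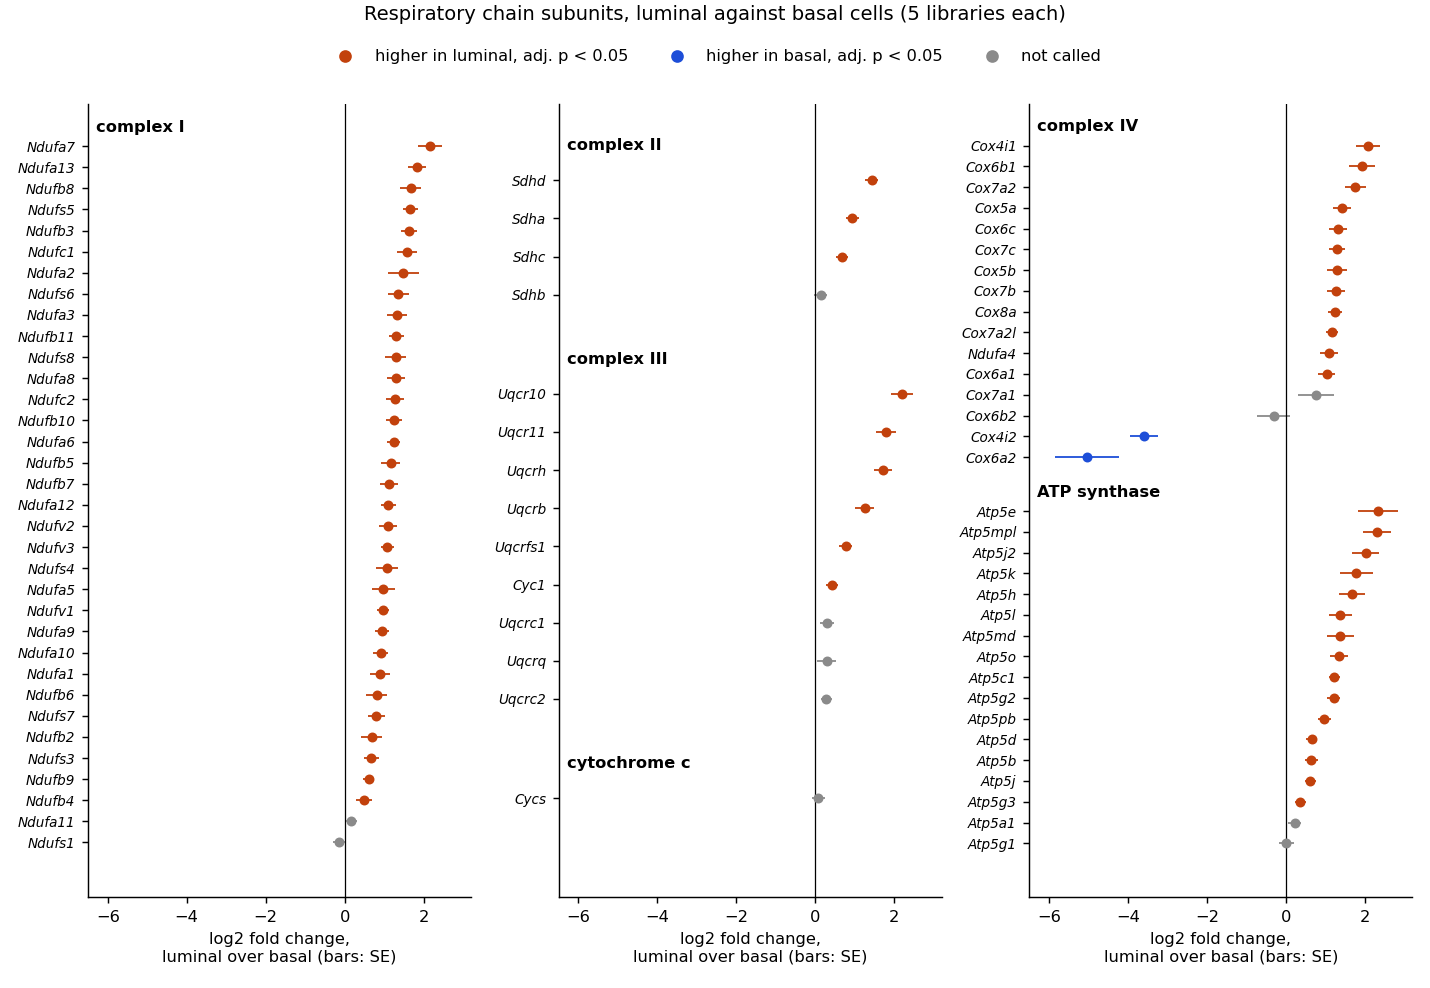
Log2 fold change of 81 tested subunits, luminal over basal (x axis, with its standard error), arranged by complex, with 5 libraries in each group. The 68 subunits in orange lie to the right of 0, the 2 in blue (Cox4i2 and Cox6a2) lie at -3.60 and -5.03, and the 11 in grey did not pass the test.

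Summed over all 85 members, the level was 7363, 9971, 7165, 13030 and 9267 CPM in luminal replicates 1 to 5 and 4010, 3936, 4519, 5551 and 3859 CPM in basal replicates 1 to 5. Every luminal library lay above every basal library, with means of 9360 ± 2380 CPM (SD, n = 5) and 4380 ± 706 CPM (SD, n = 5), a ratio of 2.14. The ratio was 2.78 for complex IV, 2.18 for complex I, 2.03 for complex III, 1.87 for the ATP synthase and 1.80 for complex II. The luminal sums did not overlap with the basal sums for any of these 5 complexes, whereas the single gene for cytochrome c had means of 19.6 ± 2.70 CPM in luminal libraries and 18.7 ± 3.26 CPM in basal libraries (SD, n = 5 each) and overlapped.

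**Figure D2:**
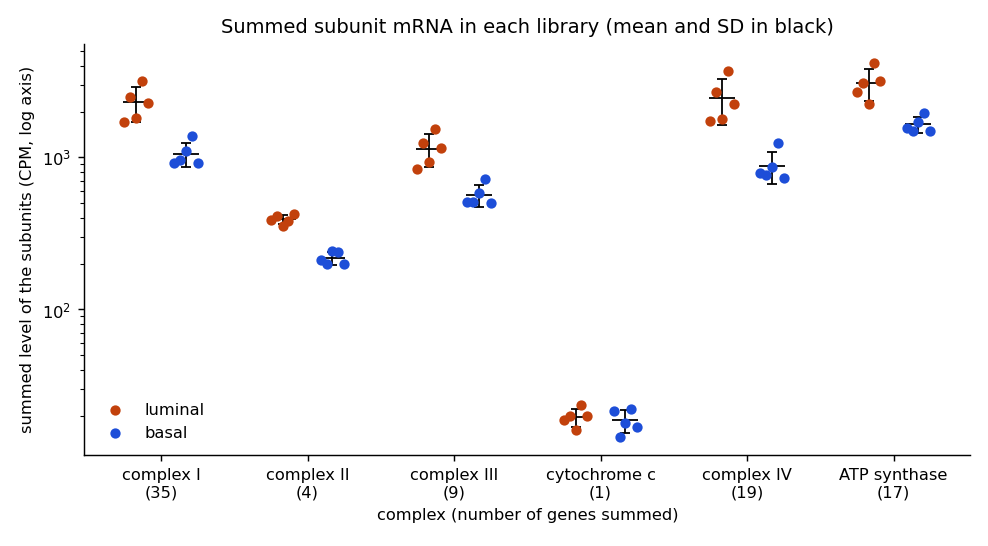
Summed level of the subunits of each complex in each library (CPM on a log axis, luminal in orange and basal in blue, with mean and SD in black). Luminal libraries stood above basal libraries for every complex but overlapped with them for cytochrome c, and replicate 4 was the highest library of both groups for complexes I, III and IV and the ATP synthase.

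The spread between libraries of a group was not the same for all subunits, and it went with the length of the coding sequence. Members with a coding sequence of up to 300 bases stood in luminal replicate 4 at 1.52 times, in luminal replicate 2 at 1.22 times and in luminal replicate 1 at 0.604 times the mean of their group (median over 22 members, without Cox6a2), and in basal replicate 4 at 1.44 times. Over all genes tested of that length the same libraries stood at 1.34, 1.07, 0.718 and 1.25 times the group mean. Members over 600 bases stood at 0.833 to 1.1 times the group mean in luminal libraries and at 0.891 to 1.22 times in basal libraries.

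The difference between the cell types also varied with coding length. The median log2 fold change was 1.37 for the 23 tested members of up to 300 bases, 1.19 for the 38 of over 300 and up to 600 bases and 0.80 for the 21 of over 600 bases. Genes outside the set showed a gradient in the same direction, with medians of 0.78, 0.51 and -0.02 in the same classes (239, 1434 and 11706 genes), of which 56.1%, 47.8% and 31.5% were called higher in luminal cells. Among the members, 19 of 23, 34 of 38 and 16 of 21 were called higher in luminal cells. Spearman's rho of fold change with coding length over the 82 members was -0.45, a description across genes that share libraries and are not independent. When each library's trend on GC content and transcript length was entered as an offset, which also takes up trends that differ between the cell types, 56 members were called toward luminal cells and 6 toward basal cells (Cox6a2, Cox4i2, Cox6b2, Atp5g1, Ndufa11 and Sdhb), with a median of 0.59 against 0.12 over all genes. In that fit Cox4i1 stood at 1.38, Atp5e at 1.52, Uqcr10 at 1.44 and Ndufa7 at 1.39. Trends taken only within each group leave in place, by construction, any trend that differs between the cell types. In that fit the values were 69, 2 and 1.13. Without both libraries numbered 4 they were 68, 2 and 1.13, and without luminal replicates 2 and 4 and basal replicate 4 they were 67, 2 and 1.01. The part of transcript length in the difference between cell types was not tested beyond these fits.

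**Figure D3:**
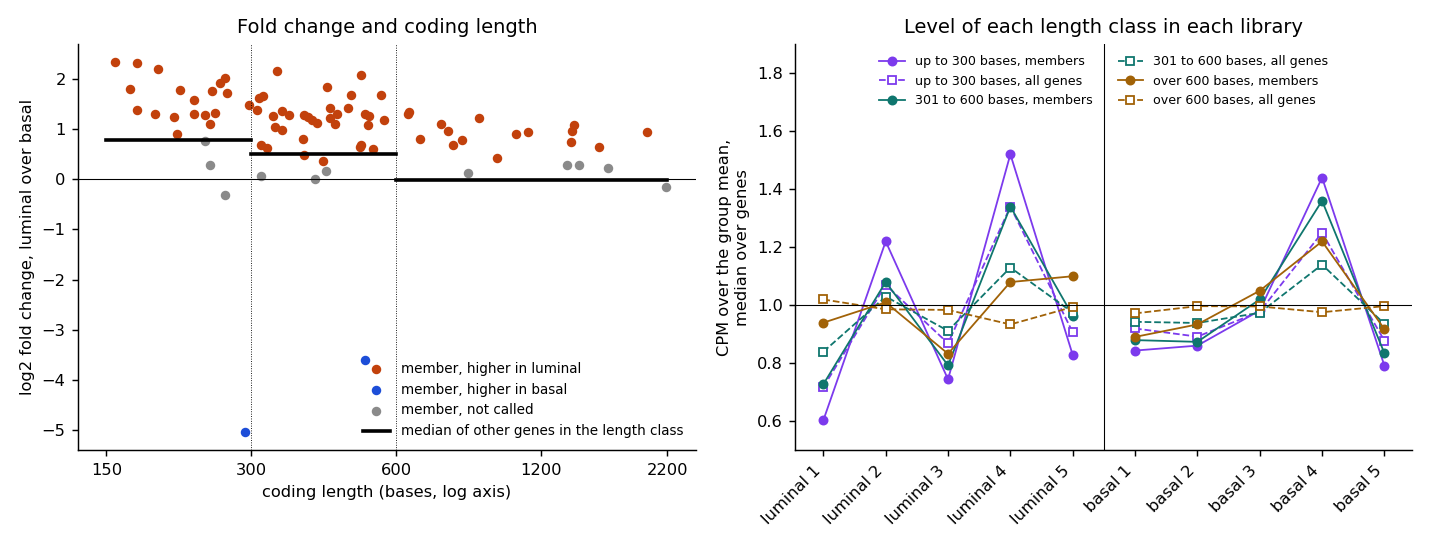
Left, log2 fold change of each tested subunit against its coding length (bases, log axis), with the median of the other genes in 3 length classes as black lines. Right, the level of each length class in each library as a multiple of its group mean (median over genes, filled for members and open for all genes tested). The medians of other genes fall from 0.78 to -0.02 with length, and short members stand highest in luminal replicate 4 at 1.52 and basal replicate 4 at 1.44.

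In complex I, 33 of 35 members were higher in luminal cells and none in basal cells, with a median log2 fold change of 1.11. The largest differences were those of accessory subunits, which surround the catalytic core. Ndufa7 (chromosome 17, 33824572 to 33838316, GRCm38) was at 117, 234, 167, 358 and 156 CPM in luminal replicates 1 to 5 and at 39.4, 36.4, 42.0, 74.6 and 38.3 CPM in basal replicates 1 to 5. The lowest luminal library was thus above the highest basal one, with a log2 fold change of 2.16 (SE 0.29, adjusted p 1.66e-05, edgeR). Ndufa13, also known as a regulator of cell death, was at 54.6 to 108 CPM in luminal and 15.7 to 30.0 CPM in basal libraries (log2 fold change 1.83, SE 0.24), and Ndufb8, a subunit of the membrane arm, at 46.3 to 103 CPM and 14 to 34.1 CPM (1.67, SE 0.26).

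Further accessory subunits of complex I that were at least 2-fold higher in luminal cells, by their log2 fold change, were Ndufs5 (1.66), Ndufb3 (1.62), Ndufc1 (1.58), Ndufa2 (1.48), Ndufs6 (1.35), Ndufa3 (1.31), Ndufb11 (1.31), Ndufa8 (1.29), Ndufc2 (1.27), Ndufb10 (1.25), Ndufa6 (1.24), Ndufb5 (1.17), Ndufb7 (1.12), Ndufa12 (1.11), Ndufv3 (1.08) and Ndufs4 (1.07). Of the 28 accessory subunits taken by the symbol rule, 27 were higher in luminal cells with a median of 1.20. The 7 nuclear-encoded core subunits, which bind the flavin and the iron-sulphur clusters or line the quinone site, had a median of 0.80 and 6 were called. Among these, Ndufs8 (1.29, SE 0.26) and Ndufv2 (1.09, SE 0.22) passed 2-fold, followed by the NADH-binding subunit Ndufv1 (0.96), Ndufs7 (0.80) and Ndufs3 (0.67). Core subunits have longer coding sequences, so this order goes along with the gradient described above and was not tested apart from it.

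The exceptions among the complex I members were Ndufs1 and Ndufa11. Ndufs1, the largest core subunit, was at 36.3, 26.2, 28.5, 26.1 and 33.1 CPM in luminal and 29.1, 33.1, 33.4, 41.3 and 29.7 CPM in basal replicates 1 to 5. The groups overlapped, with a log2 fold change of -0.15 (SE 0.15, adjusted p 0.40, edgeR). Ndufa11, a membrane subunit, was at 21.8 to 34.1 CPM in luminal and 21.7 to 28.4 CPM in basal libraries (0.17, SE 0.15, adjusted p 0.356, edgeR). Ndufab1, an accessory subunit of complex I outside the symbol rule, did not pass the test either (0.23, SE 0.16, adjusted p 0.236, edgeR). The smallest differences among called members were those of Ndufb4 (0.49, SE 0.19), Ndufb9 (0.60, SE 0.14) and Ndufs3 (0.67, SE 0.19). With the replicate number as a block, Ndufb4 was the one member to lose its call (log2 fold change 0.46, adjusted p 0.0523, edgeR).

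Complex II is the sole complex whose subunits are all nuclear. The membrane anchor Sdhd was at 75.9, 136, 97.6, 116 and 87.3 CPM in luminal and 34.7, 39.1, 43.2, 41.0 and 33.0 CPM in basal replicates 1 to 5, with no overlap and a log2 fold change of 1.43 (SE 0.17, adjusted p 3.70e-06, edgeR). The flavoprotein Sdha, which oxidises succinate, was higher in luminal cells by 0.94 (SE 0.16), at 114 to 196 CPM against 70.5 to 91.8 CPM. The other anchor Sdhc was higher by 0.67 (SE 0.15). In contrast, the iron-sulphur subunit Sdhb was at 41.5 to 67.5 CPM in luminal and 39.2 to 63.6 CPM in basal libraries and did not pass the test (0.13, SE 0.17, adjusted p 0.527, edgeR).

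In complex III, 6 of 9 members were higher in luminal cells. The 3 largest differences were those of small subunits. Uqcr10 (chromosome 11, 4701968 to 4704344) was at 69.5, 169, 114, 232 and 114 CPM in luminal and 31.9, 23.0, 27.6, 44.1 and 26.2 CPM in basal replicates 1 to 5, with a log2 fold change of 2.19 (SE 0.28, adjusted p 1.09e-05, edgeR). Uqcr11 was higher in luminal cells by 1.79 (SE 0.25), and the hinge protein Uqcrh, which sits where cytochrome c docks, by 1.71 (SE 0.22), at 241 to 541 CPM against 87.9 to 152 CPM. Uqcrb, which helps to shape the quinone site, was higher by 1.25 (SE 0.24). The catalytic subunits differed less, with 0.77 (SE 0.16) for the Rieske protein Uqcrfs1 and 0.42 (SE 0.15, adjusted p 0.0218, edgeR) for cytochrome c1, Cyc1, and the libraries of both overlapped between groups. The remaining 3 members did not pass the test, namely the core proteins Uqcrc1 (59.5 to 85.4 CPM in luminal, 41.2 to 76.8 CPM in basal libraries) and Uqcrc2 (92.8 to 147 CPM and 82.9 to 107 CPM) and the small subunit Uqcrq (67.2 to 176 CPM and 71.5 to 135 CPM), at log2 fold changes of 0.27 to 0.29.

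Cycs (chromosome 6, 50562563 to 50566569) encodes cytochrome c, the mobile carrier between complexes III and IV. It was at 18.8, 19.8, 16.1, 23.6 and 19.9 CPM in luminal and 21.6, 14.6, 17.8, 22.3 and 17 CPM in basal replicates 1 to 5. The groups overlapped over most of their range (0.07, SE 0.17, adjusted p 0.727, edgeR), and the sign turned when luminal replicate 4 (-0.0047) or basal replicate 2 (-0.02) was left out.

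In complex IV, 12 of 16 tested members were higher in luminal cells, each by at least 2-fold, and 2 were higher in basal cells. Cox4i1, the widely expressed form of the regulatory subunit 4 (chromosome 8, 120668225 to 120674209), was at 539, 812, 573, 1530 and 728 CPM in luminal and 178, 165, 179, 320 and 146 CPM in basal replicates 1 to 5. The groups did not overlap with a log2 fold change of 2.08 (SE 0.30, adjusted p 3.06e-05, edgeR). Cox6b1, which lies on the outer face of the complex, followed with 1.92 (SE 0.32) at 96.1 to 292 CPM against 31.8 to 82.8 CPM, and Cox7a2 with 1.76 (SE 0.27) at 51.0 to 134 CPM against 19.7 to 36.5 CPM.

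The other complex IV genes called in this direction were Cox5a (1.42), Cox6c (1.31), Cox7c (1.29), Cox5b (1.29), Cox7b (1.27), Cox8a (1.24), Cox7a2l (1.17), Ndufa4 (1.1) and Cox6a1 (1.03). Cox7a2l is known as a factor that joins complexes III and IV rather than a subunit, and without it 68 members were higher in luminal cells. Ndufa4 was first assigned to complex I and is now placed in complex IV. Per kilobase of transcript, Cox4i1 was the most abundant of all members in luminal cells at a mean of 1120 CPM per kilobase, ahead of Atp5e (1070), Uqcrh (651), Cox8a (445) and Atp5b (417). The value of Atp5e rests on luminal replicate 4, without which it was 605, against 890 for Cox4i1 and 566 for Uqcrh. Atp5b and Cox8a were then at 442 and 427. In basal cells Atp5b (267) and Cox4i1 (265) were close, ahead of Uqcrq (236), Atp5e (214) and Uqcrh (198). Without basal replicate 4, Atp5b was at 264, Cox4i1 at 224, Uqcrh at 179 and Atp5e at 168. Uqcrq was not recalculated, so its place in that order is not given.

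The ATP synthase had 15 of 17 members higher in luminal cells and none in basal cells, with a median of 1.22. Atp5e (chromosome 2, 174461075 to 174464101), the small epsilon subunit of the central stalk, was at 168, 387, 221, 1232 and 243 CPM in luminal and 85.4, 65.2, 67.7, 167 and 64.3 CPM in basal replicates 1 to 5. Replicate 4 stood far above the other 4 libraries in both groups, and the lowest luminal library was barely above the highest basal one, with a log2 fold change of 2.32 (SE 0.50, adjusted p 0.000994, edgeR). Without luminal replicate 4 it was 1.5 (adjusted p 0.000575, edgeR). Atp5mpl, a small membrane protein of the complex, was at 37.6 to 159 CPM in luminal and 12.3 to 24.3 CPM in basal libraries (2.31, SE 0.35), and Atp5j2, subunit f, at 66.0 to 240 CPM and 23.1 to 55.9 CPM (2.02, SE 0.35).

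Other membrane and peripheral stalk subunits at least 2-fold higher in luminal cells were Atp5k (1.78), Atp5h (1.67), Atp5l (1.37), Atp5md (1.37), Atp5o (1.33) and Atp5g2 (1.21), and the stalk subunit Atp5pb was higher by 0.97 and Atp5j by 0.62. Of the catalytic head and central stalk, the gamma subunit Atp5c1 was at 136 to 216 CPM in luminal and 69.6 to 77.1 CPM in basal libraries, a log2 fold change of 1.22 (SE 0.14, adjusted p 3.91e-06, edgeR). The catalytic beta subunit Atp5b was at 915, 806, 617, 608 and 1051 CPM in luminal and 483, 461, 581, 538 and 496 CPM in basal replicates 1 to 5 (0.64, SE 0.18, adjusted p 0.00522, edgeR), and the delta subunit Atp5d was higher by 0.64 (SE 0.15). The alpha subunit Atp5a1, its partner in the head, was at 365 to 573 CPM and 354 to 405 CPM and did not pass the test (0.22, SE 0.16, adjusted p 0.248, edgeR).

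Where a subunit has alternative forms, the share of each form was taken from the counts of its family in each library and compared by an exact two-sided permutation test over the 10 libraries (252 regroupings, smallest possible p 0.00794), with adjustment over the 7 shares tested. The share of Cox4i2 within the pair Cox4i1 and Cox4i2 was 0.139%, 0.0843%, 0.416%, 0.125% and 0.287% in luminal replicates 1 to 5 and 7.52%, 12.2%, 10.8%, 6.48% and 8.37% in basal replicates 1 to 5. The means were 0.210% ± 0.138 (SD, n = 5) and 9.08% ± 2.37 (SD, n = 5), exact permutation p 0.00794, adjusted p 0.00926. The gene itself (chromosome 2, 152753916 to 152765039), the hypoxia-regulated form known from lung and vessels, was at 0.750, 0.685, 2.39, 1.91 and 2.09 CPM in luminal and 14.5, 22.9, 21.7, 22.2 and 13.3 CPM in basal replicates 1 to 5. Every basal library was above every luminal library (-3.60, SE 0.35, adjusted p 6.09e-07, edgeR).

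Cox4i2 is also known from pericytes, and the values of that cell type are therefore given beside it. Of the 4 pericyte and vascular muscle markers listed, Rgs5 was at 16.9 to 28.9 CPM in basal libraries and at 0 in luminal libraries other than replicate 3 (0.797 CPM), Kcnj8 was at 1.23 to 4.49 CPM in basal libraries and likewise at 0 in luminal libraries other than replicate 3 (0.491 CPM), and Abcc9 was at 0.188 to 0.409 CPM in basal libraries and at 0.491 CPM in luminal replicate 3. Notch3 was higher in luminal cells and made up nearly the whole luminal sum of the list, which was 94.9 to 268 CPM in luminal and 24.8 to 34.6 CPM in basal libraries. The 3 endothelial markers summed to 1.58 to 4.06 CPM in luminal and 5.73 to 12.4 CPM in basal libraries. Of these, Cdh5 was at 0.0527 to 0.491 CPM in luminal and 2.69 to 6.69 CPM in basal libraries. Pecam1 overlapped, at 1.47 to 3.93 CPM and 1.62 to 5.99 CPM, and Kdr was at no more than 0.955 CPM. Abcc9 was also at 0.063 CPM in luminal replicate 5. Cox4i2 was at 2.39 CPM in luminal replicate 3. In luminal replicates 1, 2, 4 and 5, where Rgs5 and Kcnj8 were at 0, Cox4i2 was at 0.750, 0.685, 1.91 and 2.09 CPM. Ndufa4l2, a hypoxia-regulated relative of Ndufa4 outside the symbol rule, moved in the same direction (22.4 to 95.3 CPM in basal, 0.761 to 2.98 CPM in luminal libraries, -4.94, SE 0.45). The part of such cells in the basal level of Cox4i2 was not tested.

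Cox6a2 (chromosome 7, 128205435 to 128206366), the heart and skeletal muscle form of subunit 6A, had 25, 22, 24, 52 and 21 counts in basal replicates 1 to 5 and 4 counts in luminal replicate 3, with none in the other 4 luminal libraries. Relative to the total counts, the summed basal level was 33.1 times the luminal one (95% exact interval 12.6 to 123, counting error only). The gene passed the filter on low counts only through its basal libraries. The fit gave a log2 fold change of -5.03 (SE 0.81, adjusted p 8.39e-05, edgeR). Without luminal replicate 3, which holds all luminal counts, the fit gave -7.89. That value has no luminal count behind it and is not a measured fold. Its share in the pair with Cox6a1 was 1.46% to 2.11% in basal libraries and 0.176% in luminal replicate 3, and the absence of counts in the other luminal libraries allows shares of up to 0.0664% to 0.0962% (exact permutation p 0.00794, adjusted p 0.00926). Of the 4 skeletal muscle markers, summing to 11.9 to 20.3 CPM in luminal and 70.0 to 133 CPM in basal libraries, Acta1 made up nearly all of the basal sum. Ckm was at 0.438 to 3.07 CPM in luminal libraries, highest in replicate 3, and at no more than 0.437 CPM in basal libraries. Tnnt3 was at 0 in every library but luminal replicate 2 (0.474 CPM), and Mb was higher in luminal cells. The part of muscle cells in the level of Cox6a2 was not tested.

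**Figure D4:**
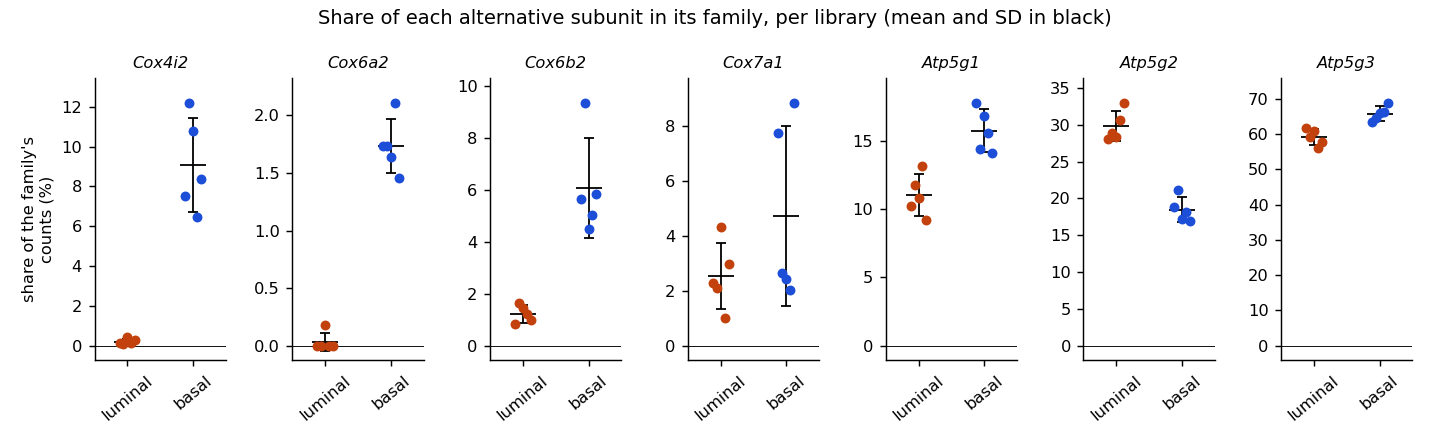
Share of 7 alternative subunits in the counts of their family (y axis, percent, each panel with its own scale that includes 0) in each luminal (orange) and basal (blue) library, with mean and SD in black. Groups are separate for all but Cox7a1, with Atp5g2 higher and Cox4i2, Cox6a2, Cox6b2, Atp5g1 and Atp5g3 lower in luminal libraries.

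Neither Cox6b2 nor Cox7a1 passed the test as a gene. Cox6b2, known from testis, was at 0.813 to 3.59 CPM in luminal and 2 to 4.38 CPM in basal libraries (-0.32, SE 0.43, adjusted p 0.534, edgeR), while its share in the pair with Cox6b1 was 1.23% ± 0.335 (SD, n = 5) in luminal and 6.06% ± 1.91 (SD, n = 5) in basal libraries (exact permutation p 0.00794, adjusted p 0.00926). Cox7a1, the muscle form of subunit 7A, was at 1.19 to 2.70 CPM and 0.614 to 1.92 CPM (0.76, SE 0.45, adjusted p 0.159, edgeR), with shares of 2.54% ± 1.22 (SD, n = 5) and 4.75% ± 3.28 (SD, n = 5) that did not pass the test (exact permutation p 0.27, adjusted p 0.27). The remaining complex IV forms did not pass the filter on low counts. Cox8b, the muscle form of subunit 8, had 3 counts, all in luminal replicate 3, Cox7b2 had 0 to 3 counts in every library, and Cox8c had none, which allows a level of up to 0.167 to 0.227 CPM.

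The 3 genes of subunit c encode one mature protein with different import sequences, and they did not move together. Atp5g2 (chromosome 15, 102662868 to 102671047) was at 55.4, 65.3, 51.2, 74.1 and 77.0 CPM in luminal and 26.0, 29.5, 26.7, 35.6 and 21.7 CPM in basal replicates 1 to 5. Atp5g3 was at 110 to 136 CPM and 87.1 to 130 CPM (0.35, SE 0.14, adjusted p 0.0386, edgeR). Atp5g1 was at 19.5 to 31.9 CPM and 17.9 to 30.7 CPM and did not pass the test (0.00, SE 0.19, adjusted p 0.988, edgeR), with a sign that changed between fits. In luminal libraries Atp5g2 gave 29.8% ± 2.04 (SD, n = 5) of the counts of the family, in basal libraries 18.5% ± 1.68 (SD, n = 5). Atp5g1 gave 11% ± 1.52 and 15.7% ± 1.6 and Atp5g3 59.1% ± 2.27 and 65.8% ± 2.12 (SD, n = 5 each). For each of the 3 shares the groups did not overlap (exact permutation p 0.00794, adjusted p 0.00926), and the 3 shares of a library sum to the whole and are not independent.

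Some values carry an uncertainty from similar sequences, since how reads that map to several genes were counted is not given in the sources used here. Of the 85 members, 4 shared at least 50% of the 32-base words of their coding transcripts with other annotated gene entries, namely Atp5l (85.4%), Atp5o (58.7%), Uqcrb (57.3%) and Ndufs3 (54.0%), and 53 shared under 10%. For Atp5o the other entries include one of the same symbol, so its sharing with different genes alone was not determined. The pseudogene Ndufs5-ps had a higher level than Ndufs5, at means of 51.0 CPM in luminal and 16.3 CPM in basal libraries against 21.9 and 6.92 CPM, and Ndufb4c (20.3 and 10.1 CPM) stood close to Ndufb4 (15.3 and 10.9 CPM).

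Beyond the subunits, 182 genes of lists on their assembly and supply were examined, of which 179 were tested (Coa1 and Pet117 were not in the table and Slc25a31 did not pass the filter). Toward luminal cells 105 (58.7%) were called and toward basal cells 24 (13.4%), beside the 33.6% and 31.2% of all genes given above. Mitochondrial ribosomal proteins, which translate the subunits encoded in the mitochondrial genome, had 60 of 78 members called toward luminal and 2 toward basal cells and a median of 0.88. With GC and length entered as offsets these became 41, 3 and 0.47, and over all lists 81 genes were then called toward luminal cells. Mrpl33 (2.18, SE 0.35) and Mrps21 (1.81, SE 0.27) were highest, and Mrpl48 (-0.98, SE 0.15) and Mrps18b (-0.45, SE 0.18) were the exceptions.

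Assembly factors were mixed. For complex IV, 12 of 21 were called toward luminal and 3 toward basal cells, with Pet100 (2.24) and Coa4 (1.96) at one end and the copper chaperones Cox11 (-0.76) and Sco2 (-0.54) at the other. For complex I, 7 of 15 were higher in luminal cells, led by the iron-sulphur carrier Nubpl (1.88) and Ndufaf8 (1.45), and 3 in basal cells, led by Acad9 (-2.61, SE 0.24), which was at 93.5 to 256 CPM in basal and 21.3 to 31.1 CPM in luminal libraries, and Ndufaf4 (-0.71). For complex III, 5 of 6 were higher in luminal cells, with Uqcc3 (1.83) and the Rieske inserter Bcs1l (1.41) in front, and Ttc19 (-0.52) was higher in basal cells. For complex II, 3 of 4 were higher in luminal cells, among them Sdhaf4 (1.66) and Sdhaf1 (1.06). None of the 4 ATP synthase assembly factors was higher in luminal cells at an adjusted p under 0.05, and Tmem70 (-1.01), which helps to build the ring of subunit c, and Atpaf2 (-0.37) were higher in basal cells. Under GC and length offsets, complex IV factors had 9 calls toward luminal and 3 toward basal cells, with a median of 0.38 against 0.81. Complex I then had 6 and 3, complex III 4 and 1, complex II 4 and 0, and the ATP synthase 0 and 2.

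In the supply of electrons, the counts stand beside the 33.6% of all genes called toward luminal cells and the 31.2% called toward basal cells. There, 8 of 18 tricarboxylic acid cycle and pyruvate dehydrogenase genes were higher in luminal cells, with the fumarase Fh1 (1.27) and Suclg1 (1.17) in front, and 3 in basal cells, with Dlst (-0.84) and Ogdh (-0.42), both of the oxoglutarate dehydrogenase complex. Of the ubiquinone synthesis genes, 5 of 11 were higher in luminal cells, with Pdss2 (1.73) and Coq4 (1.38), and 2 in basal cells, Coq8a (-0.97) and Coq8b (-0.46). Among the carriers and porins, Mpc2 (1.31), a part of the pyruvate carrier, and Vdac1 (1.18) were among 4 of 8 higher in luminal cells, whereas Vdac3 (-0.88) and the ADP/ATP carrier Slc25a4 (-0.53) were higher in basal cells. The ADP/ATP carrier Slc25a5 (0.65) was higher in luminal cells. Mpc1, the partner of Mpc2, did not pass the test (0.02, adjusted p 0.951, edgeR). Under GC and length offsets, carriers and porins had 3 calls toward luminal and 4 toward basal cells, with a median of -0.0099 against 0.24. The tricarboxylic acid cycle list then had 7 and 3, and ubiquinone synthesis 4 and 2.

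Of 14 regulators of mitochondrial biogenesis, 1 was higher in luminal and 6 were higher in basal cells, with counts of 1 to 3 and 5 to 6 over all alternative fits, where 31.2% of all genes were called toward basal cells. Their median was -0.14, and it turned positive when only totals were scaled (0.05), when offsets were entered (0.06), and without luminal replicates 2 and 4 and basal replicate 4 (0.03). The coactivators Pprc1 (-1.6, SE 0.16) and Ppargc1b (-1.55, SE 0.30) showed the largest differences. Nrf1, the nuclear respiratory factor that binds many promoters of subunit genes, was at 44.8, 41.6, 45.1, 36.9 and 40.8 CPM in luminal and 86.4, 61.8, 65.5, 64.7 and 92.0 CPM in basal replicates 1 to 5 (-0.82, SE 0.15, adjusted p 0.000192, edgeR). Yy1 (-0.75), Gabpa (-0.59), which is the DNA-binding part of nuclear respiratory factor NRF-2, and Tfb2m (-0.54) were also higher in basal cells. The nuclear receptor Esrra was higher in luminal cells, at 32.7 to 42.3 CPM against 19.8 to 29.0 CPM (0.58, SE 0.15, adjusted p 0.00302, edgeR). The others did not pass the test, namely Ppargc1a (0.96, SE 0.54, at most 2.83 CPM), Tfb1m (0.27), Gabpb1 (0.19), Twnk (-0.0042), Polg (-0.06), Polrmt (-0.09) and Tfam (-0.19).

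**Figure D5:**
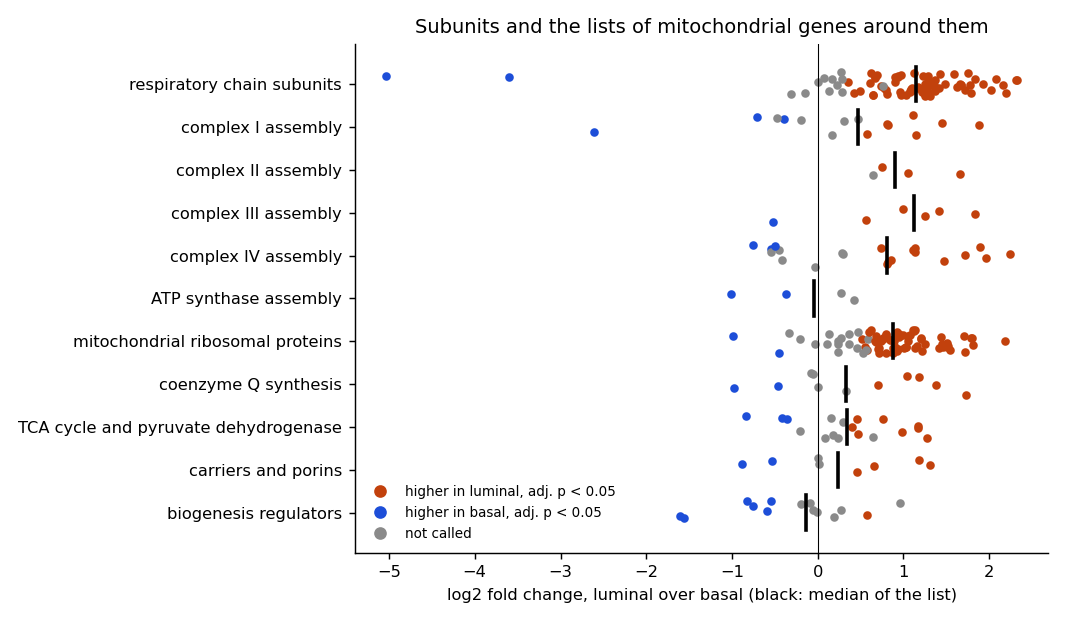
Log2 fold change, luminal over basal (x axis), of each tested gene of the subunits and of 10 lists of related mitochondrial genes, with the median of each list as a black bar and points spread vertically within a list. Mitochondrial ribosomal proteins have a median of 0.88 next to 1.15 for the subunits, while biogenesis regulators have a median of -0.14, which turns to 0.05 when only library totals are scaled.

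The promoters of the subunit genes were searched for the motifs of these factors. RefSeq promoters (250 bases before to 50 after the start, GRCm38.p6) were found for 69 of the 85 members, 74 promoters in all. The NRF1 motif GCGCANGCG on either strand occurred in 22 of them (29.7%), against 6.25% of all 32851 promoters. The ETS motif CCGGAAG, which GABPA binds, occurred in 17 (23.0%, against 8.86%), the YY1 motif AAGATGGCG in 7 (9.46%, against 1.40%), the ERR motif CAAGGTCA in 4 (5.41%, against 1.56%), and at least one of these 4 in 38 (51.4%, against 16.2%). The SP1 motif GGGCGG occurred in 40.5% of member promoters and 35.7% of all, and the CCAAT motif in 43.2% and 37.4%. A match describes the letters in the window and is neither a bound site nor a cause.

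These 3 promoters are shown because they hold the same NRF1 motif while their genes differed in behaviour, Cox6a1 (log2 fold change 1.03) and Atp5l (1.37) being higher in luminal cells and Cycs (0.07) not passing the test. Each line gives the 250 bases before the start, 5′ to 3′ on the strand of the gene, with NRF1, ETS and ERR motif matches in capitals. All 3 genes lie on the minus strand, at chr5:115348959-115349208, chr9:44920743-44920992 and chr6:50566570-50566819. The Cox6a1 window holds 3 NRF1 matches, of which 2 overlap, and 1 ETS match. The Atp5l window holds 1 match each of NRF1, ETS and ERR, and the Cycs window holds 1 NRF1 match.
Cox6a1: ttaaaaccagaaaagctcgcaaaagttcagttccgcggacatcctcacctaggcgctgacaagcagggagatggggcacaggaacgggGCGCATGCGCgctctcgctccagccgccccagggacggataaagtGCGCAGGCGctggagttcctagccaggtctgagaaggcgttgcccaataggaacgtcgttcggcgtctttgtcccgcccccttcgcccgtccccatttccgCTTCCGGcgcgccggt
Atp5l: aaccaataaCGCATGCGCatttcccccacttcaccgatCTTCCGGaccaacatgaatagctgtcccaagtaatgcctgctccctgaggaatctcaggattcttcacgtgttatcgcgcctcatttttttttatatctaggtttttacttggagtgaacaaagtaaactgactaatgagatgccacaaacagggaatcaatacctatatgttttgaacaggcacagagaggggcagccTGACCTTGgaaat
Cycs: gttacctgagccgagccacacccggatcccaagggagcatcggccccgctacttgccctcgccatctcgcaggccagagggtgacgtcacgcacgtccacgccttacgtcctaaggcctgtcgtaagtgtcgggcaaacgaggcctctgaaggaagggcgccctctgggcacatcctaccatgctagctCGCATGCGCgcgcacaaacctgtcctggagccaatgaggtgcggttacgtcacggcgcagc

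Markers of further cell types were measured in the same libraries. Adipoq and Ucp1, of fat cells, and Cd3e, of T cells, were at 0 in every library. The 4 immune markers summed to 3.13 to 8.78 CPM in luminal and 0.387 to 3.94 CPM in basal libraries, and the 3 fibroblast markers to 6.18 to 19.7 CPM and 12.6 to 24.8 CPM. The 4 adipocyte markers summed to 1.97 to 11.1 CPM and 1.57 to 5.05 CPM, mostly from Cidea. The haemoglobin gene Hba-a1, the one erythroid marker measured, was at 3.37 to 15.9 CPM in luminal and 0 to 0.188 CPM in basal libraries. Their part in the difference of the subunits was not tested.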

How the data were processed

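RNA-seq was done on sorted luminal and basal cells, 5 libraries each (RNeasy extraction and NEBNext Ultra II libraries per the labels). The authors deposited raw counts per Entrez gene, one column per library, without normalization. The submitters' processing notes name cutadapt 4.2, Bowtie2 2.3.5.1 and the builds hg19 and mm10. The study's methods describe poly(A) selection, single-end reads, mm10 and lineage staining for CD31, CD45 and TER-119 in the sort, for fewer replicates than are present here, and these steps were assumed to hold for all libraries. The counting tool, annotation and treatment of strand and of multiply mapping reads are not given in the sources used here. Bowtie2 does not split reads over splice junctions, so junction reads can be lost if the target was the genome. The RefSeq gene table (GRCm38.p6) named 24570 of the 24594 Entrez genes and gave coordinates. Mitochondrially encoded genes were not analysed here.

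Counts were fitted with edgeR 4.0.16 in R 4.3.3 on 14609 genes that passed filterByExpr (minimum count 10), with TMM factors, a quasi-likelihood test of luminal against basal and Benjamini-Hochberg adjustment over all genes tested. Each SE was obtained as |log2 fold change| over the root of the F statistic. CPM uses TMM-scaled totals. Transcript length and GC content are those of a gene's median-length GENCODE M21 transcript, and coding length that of its longest, known for 85 members. Shared sequence was counted in words of 32 bases. Totals of 13203146 to 17998165 counts set the counting error, and intervals and limits of 3 counts cover that error only. Shares were compared with scipy 1.17.1. The members, gene lists and tests were chosen with earlier results of these data known. Members named are the 3 largest changes per complex in each direction, all called 2-fold changes, the isoform families, all members not tested or not called, and from each list the 2 largest changes in each direction and all regulators. Other genes, Ndufs5-ps and Ndufb4c among them, were named after their values were seen, as were the motifs and the 3 printed promoters. The fits were tested on simulated data. The values of 1 member are not reported here singly, though it enters all counts and sums.

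Alternatives were other scaling (edgeR RLE, upper quartile, library totals), no filter, at least 10 counts in every library, DESeq2 1.42.0, limma voom 3.58.1, the replicate number as a block, offsets for GC content and transcript length (mgcv 1.9.3) and leaving out each library. Chosen after seeing the data were the offsets within groups and leaving out replicate 4 of both groups or luminal replicates 2 and 4 with basal replicate 4. A luminal and a basal library with the same replicate number begin their descriptions with one common number, read here as the animal. Deviations of same-numbered libraries from their group means correlated at -0.0952, 0.0978, -0.0391, 0.149 and 0.0604 (mean 0.0345, against -0.0059 for differently numbered ones). No pair of libraries of a group agreed within sampling noise (lowest chi-square per degree of freedom 14.4).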

Additional observations from a re-analysis of the deposited data

Results flagged for a closer look

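In 24 of 176 groups of 5 libraries (the 82 tested members and the summed complexes, in each cell type), 1 library lay beyond Dixon's 95% limit, and 8.8 such groups arise by chance at 1 in 20. Basal replicate 4 accounted for 18 of these, luminal replicate 4 for 5 and luminal replicate 3 for 1, and all were high.

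In basal replicate 4 the ATP synthase genes Atp5e (167 CPM), Atp5h (69.8), Atp5j2 (55.9), Atp5l (41.4), Atp5md (29.0) and Atp5o (33.3) stood apart, Atp5l at 22.8 to 24.4 CPM in the other 4 libraries. So did the complex I genes Ndufa7 (74.6 CPM), Ndufb10 (57.3), Ndufs6 (26.6) and Ndufv2 (51.3), and, of complexes II and III, Sdhb (63.6), Uqcr11 (33.4) and Uqcrfs1 (95 CPM). Of complex IV, Cox4i1 (320 CPM), Cox5a (47.6), Cox5b (26.6) and Cox7c (50.3) were apart, as was the sum of complex IV, at 1238 CPM against 735 to 860 CPM in the other basal libraries.

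In luminal replicate 4 the same held for Atp5e at 1232 CPM (168 to 387 CPM in the others), Atp5k at 29.2 CPM, Ndufa2 at 251 CPM, Ndufa5 at 33.3 CPM and Cox4i1 at 1530 CPM. In luminal replicate 3 it held for Cox6a2, at 0.245 CPM against 0 in the other luminal libraries.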

How the results depend on the processing

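Over all alternatives the number of members higher in luminal cells ranged from 55 to 72 and the median log2 fold change from 0.59 to 1.32. Members higher in basal cells numbered 6 with GC and length offsets, with a median over all members of 0.589, 6 with those offsets and the replicate block (median 0.587), and 1 with at least 10 counts in every library, which leaves Cox6a2 untested. The replicate block alone gave 68 and 2 with a median of 1.13 and ended only the call of Ndufb4. The paired sign-flip test of the shares cannot go below an exact p of 0.0625 (adjusted 0.0729), so none of the 6 shares passed it in this replicate block form, at unchanged differences of -8.87 (Cox4i2), -1.70 (Cox6a2), -4.83 (Cox6b2), -4.70 (Atp5g1), 11.3 (Atp5g2) and -6.64 percentage points (Atp5g3). Library totals and upper-quartile factors, which move the median of all genes to 0.24 and 0.17 from 0.05, cut the number of pathway genes higher in basal cells from 24 to 13 and 15, and leaving out basal replicate 5 cut it to 17. Leaving out 1 library gave 65 to 69 members higher in luminal cells, 2 higher in basal cells and medians of 1.01 to 1.25. Members that lost their call when 1 library was left out were Ndufb4 (luminal replicates 2, 3 or 4 or basal replicates 1, 2, 3 or 5, log2 fold change 0.39 to 0.52), Ndufb2 (luminal 2 or 4 or basal 1, 2, 3 or 5, 0.40 to 0.69), Atp5g3 (luminal 2, 4 or 5 or basal 1, 2 or 5, 0.30 to 0.35), Cyc1 (luminal replicate 5 or basal replicate 1, 0.33 to 0.34) and Ndufb6 (luminal replicate 4, 0.62).

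Of 1884 alternative values of single members, 1796 kept direction and call, 49 lost a call, 7 gained one and 32 changed sign, in 11 members. Offsets for GC content and length turned Atp5g1 (-0.73), Atp5g3 (-0.28), Atp5j (-0.033), Ndufa11 (-0.52), Ndufb2 (-0.061), Ndufb4 (-0.095), Ndufb9 (-0.14), Sdhb (-0.38) and Uqcrq (-0.40), and with the replicate block Atp5g1 (-0.72), Atp5g3 (-0.29), Atp5j (-0.042), Ndufa11 (-0.52), Ndufb2 (-0.071), Ndufb4 (-0.11), Ndufb9 (-0.14), Sdhb (-0.38) and Uqcrq (-0.40). Atp5g1, at 0.0035 as reported, was also negative with RLE factors (-0.0323), DESeq2 (-0.0324), no filter (-0.059), offsets within groups (-0.0054), without both libraries numbered 4 (-0.016), without luminal replicates 2 and 4 and basal replicate 4 (-0.12) and over fits without 1 library ranged from -0.12 to 0.10. Ndufs1 was positive with library totals (0.039) and without luminal replicates 2 and 4 and basal replicate 4 (0.057), and Cycs ranged from -0.018 to 0.13 without 1 library, negative without luminal replicate 4 (-0.0047) or basal replicate 2. The cause was not tested.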
